A study of Mus musculus with 17 samples.

Results

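Plasmacytoid dendritic cells, the blood and marrow cells best known for making type I interferon, were followed for 10 genes of the chemokine system. These were the chemokines Ccl3, Ccl4, Ccl5, Ccl22, Cxcl9, Cxcl10 and Xcl1, the chemokine receptors Ccr7 and Cxcr4, and the atypical receptor Ccrl2. Probe sets were taken where the platform annotation names exactly 1 gene and that gene is on the list. Each gene had 1 such probe set, so 10 of the 21354 probe sets with exactly 1 gene symbol are described, out of 24680 probe sets in the table.

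C57BL/6 mice were the source, and bone marrow the tissue. Other cells were removed magnetically and the rest sorted as CD11c-intermediate, B220+ and SiglecH+. All 17 samples were cultures of such sorted cells, and each was measured on its own Affymetrix array as biotin-labelled total RNA. The groups were CpG-A + LIF, CpG-A, CpG-B + LIF, CpG-B and LIF with 3 arrays each, and medium with 2 arrays, replicates 1 and 3. LIF, leukaemia inhibitory factor, was used at 10 ng/ml for 20 to 24 h. CpG-A and CpG-B, synthetic DNAs that trigger the receptor TLR9, were used at 6 µg/ml for 19 to 23 h. The protocol adds LIF 1 h before CpG, while the short sample descriptions name CpG first. The labels give neither age nor sex, and do not say whether replicates came from separate animals, so p-values measure the spread between these arrays, which may be technical. The number of arrays limits the precision.

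As background, chemokines are small secreted proteins that attract cells bearing the matching receptor. Ccl3, Ccl4 and Ccl5 are inflammatory chemokines that attract T cells and monocytes, Cxcl9 and Cxcl10 bind CXCR3 on activated T and NK cells, Ccl22 binds CCR4, and Xcl1 binds XCR1 on cross-presenting dendritic cells. CCR7 guides dendritic cells towards lymph nodes, CXCR4 binds CXCL12 and helps keep cells in the marrow, and CCRL2 binds chemerin without signalling as a typical receptor does. TLR9 signals through NF-kB and interferon regulatory factors, and LIF signals through gp130 and STAT3.

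The values have an unusual limit. The table holds the digits of each intensity, taken as linear, without the decimal mark, which only 1 of 419560 cells has. So only the leading part of a value, its significand between 1 and 10, is known, and not its power of 10. A significand is therefore not a level: 9.8 and 1.0 may be neighbours. On the log2 scale the same data fit differences that lie 3.32 apart. The nearest reading, at most 1.66 in size, was used, and a true change of over 3.16-fold would be misread. The words read higher and read lower are used of differences that passed the test and were at most 2.15-fold, since the other reading is then at least 4.64-fold the opposite way. For larger differences both readings are given, and readings further off by whole periods are also possible. Tests are limma's moderated test over all 21354 probe sets, with Benjamini-Hochberg adjusted p under 0.05 taken as called, and errors after ± are SE of the fit unless given as SD. Of the 39 differences called among the 10 genes, 10 kept their sign and their call in all 22 alternative analyses. All of these analyses but unfolding at the widest gap used the nearest reading, so a kept sign does not tell which reading is true.

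Promoters of 7 of the 10 genes were found in RefSeq (GRCm38.p6), and 3 are shown as examples: those of the CXCR3 ligands Cxcl10 and Cxcl9, and that of Ccrl2, which has as many NF-kB motif matches as Cxcl10. Each sequence covers the 250 bases before the start site, and capitals mark matches on either strand to an NF-kB motif (GGG and CC with any 5 bases between them) or to the interferon response element ISRE (GAAA and GAAA with any 2 bases between them).
Cxcl10, chr5:92348890-92349139, minus strand: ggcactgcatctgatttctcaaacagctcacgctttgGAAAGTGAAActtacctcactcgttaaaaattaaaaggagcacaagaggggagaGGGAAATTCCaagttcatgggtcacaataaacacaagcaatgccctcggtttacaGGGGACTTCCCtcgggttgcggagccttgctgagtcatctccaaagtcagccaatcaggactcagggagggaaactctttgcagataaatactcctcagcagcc
Cxcl9, chr5:92328080-92328329, minus strand: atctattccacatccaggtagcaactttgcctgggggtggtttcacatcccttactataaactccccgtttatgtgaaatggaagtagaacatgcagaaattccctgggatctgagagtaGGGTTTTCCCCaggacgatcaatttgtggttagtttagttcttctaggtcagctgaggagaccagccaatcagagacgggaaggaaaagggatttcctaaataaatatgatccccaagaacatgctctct
Ccrl2, chr9:111057519-111057768, minus strand: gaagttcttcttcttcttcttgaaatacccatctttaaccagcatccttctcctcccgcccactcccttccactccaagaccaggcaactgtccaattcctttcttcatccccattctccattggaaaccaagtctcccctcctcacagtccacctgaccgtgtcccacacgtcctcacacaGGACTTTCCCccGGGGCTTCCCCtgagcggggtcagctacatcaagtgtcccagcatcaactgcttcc
The Cxcl10 window holds the ISRE letters GAAAGTGAAA and 3 NF-kB matches, of which 2 overlap. Cxcl9 holds 2 overlapping NF-kB matches, and Ccrl2 holds 3 at its first start site, of which 2 overlap. Ccl22 also has 2 NF-kB matches, while the windows of Cxcr4, Xcl1, Ccl3 and the other Ccrl2 start sites have none. Of 32851 promoters of the same length, 45.8% hold the NF-kB letters and 2.98% the ISRE letters. The STAT motif TTCNNNGAA, found in 7.02% of promoters, is in none of these windows. A match describes letters only, and no binding was measured.

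**Figure D1:**
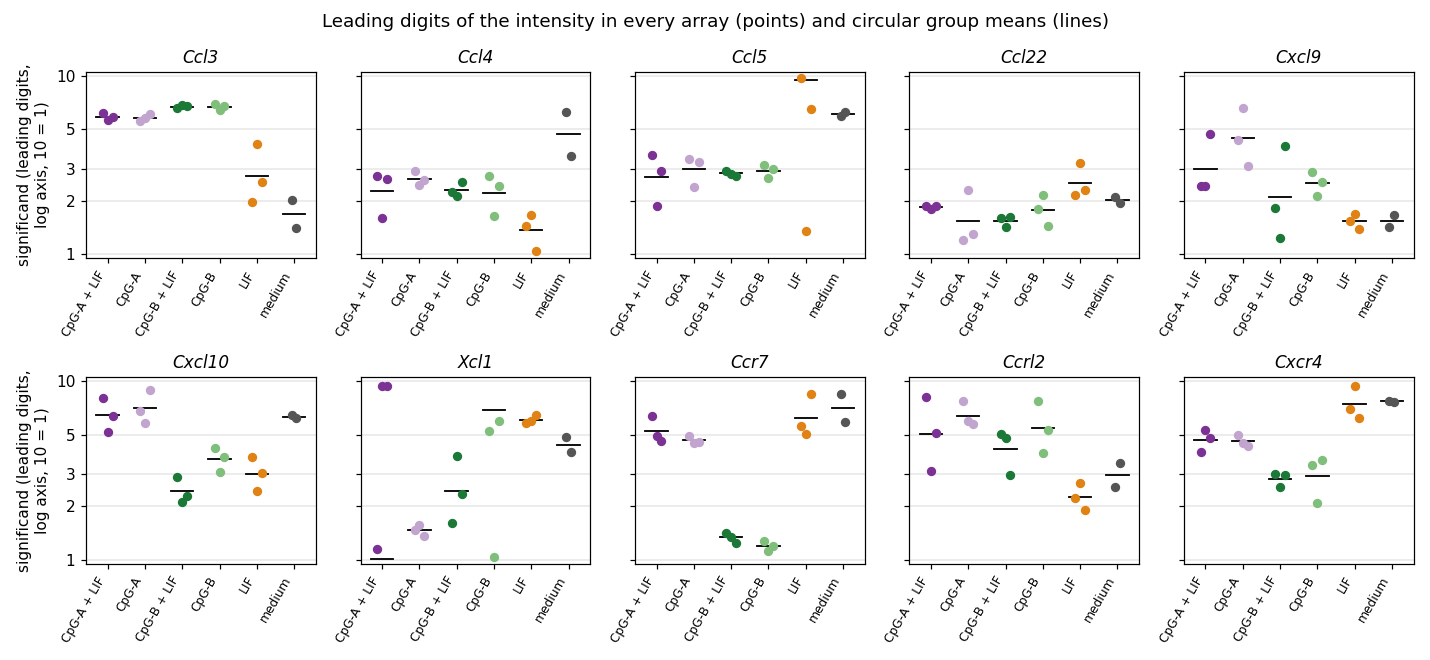
Significand of each of the 10 genes (axis from 1 to 10, log scale) on every array, by culture group. The axis wraps round, so 9.8 and 1.0 are neighbours. Ccr7 and Cxcl10 arrays of the CpG-A groups do not overlap those of the CpG-B groups.

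Ccr7, Cxcl10 and Cxcr4 separated the CpG-A cultures from the CpG-B cultures, with and without LIF. Ccr7 had significands of 4.90, 4.50 and 4.56 in CpG-A cultures, against 1.28, 1.12 and 1.19 in CpG-B cultures. With LIF it had 6.40, 4.89 and 4.58 in CpG-A + LIF cultures, against 1.42, 1.34 and 1.25 in CpG-B + LIF cultures. The CpG-A and CpG-B arrays lay far apart on the circle and did not overlap. The nearest reading was -1.36 ± 0.18, or 1.96 as the other reading, without LIF (adjusted p = 6.111e-05), and -1.35 ± 0.18, or 1.97, with LIF (adjusted p = 5.111e-05). Which CpG class had more Ccr7 is therefore not known from this contrast, while the distance between them held under all 22 alternatives.

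Cxcl10, an interferon-induced chemokine, had 6.79, 5.80 and 8.92 in CpG-A cultures, against 4.20, 3.09 and 3.76 in CpG-B cultures. It had 8.03, 5.17 and 6.33 in CpG-A + LIF cultures, against 2.91, 2.10 and 2.28 in CpG-B + LIF cultures. The CpG-A arrays lay above the CpG-B arrays in both settings by the nearest reading. Cxcl10 read higher in CpG-A cultures than in CpG-B cultures by 0.95 ± 0.20 (adjusted p = 0.003512), with 0.0002079 to 0.02539 over the alternatives. Between the LIF cultures the difference was 1.41 ± 0.20, or -1.91 (adjusted p = 9.162e-05).

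Cxcr4 had 4.97, 4.47 and 4.33 in CpG-A cultures, against 3.37, 2.07 and 3.62 in CpG-B cultures. It read higher by 0.64 ± 0.19 without LIF (adjusted p = 0.03227) and by 0.72 ± 0.19 with LIF (adjusted p = 0.01413), and the arrays did not overlap. The call without LIF was lost when any 1 CpG-A array (adjusted p 0.05913 to 0.1132) or CpG-B replicate 2 (0.39, adjusted p = 0.1824) was left out. The call with LIF was lost without CpG-A + LIF replicate 2 (0.63, adjusted p = 0.06035) or CpG-B + LIF replicate 2 (0.64, adjusted p = 0.06245).

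Across the list, 4 of 10 genes were called between CpG-A and CpG-B cultures, where 12.9% of all probe sets were called. By the nearest reading Cxcl10, Xcl1 and Cxcr4 were higher (3 of 10, where 4.29% of all were), and Ccr7 has both readings (1 of 10, where 2.36% of all did). The median size of the 10 differences was 0.45, against 0.18 over all probe sets. The 10 genes were chosen with earlier results of these data known. Counts and median sizes set beside those of all probe sets, here and below, therefore describe the list and do not test for an excess. With LIF, 4 of 10 were called between CpG-A + LIF and CpG-B + LIF cultures, against 16.9% of all probe sets. Of these, 1 read higher (5.52% of all) and 3 have both readings (3.26% of all), and the median size was 0.41, against 0.20 over all. The fourth gene was Xcl1, which differed by 1.09 ± 0.25 without LIF (adjusted p = 0.006913) and by -1.27 ± 0.25, or 2.05, with LIF (adjusted p = 0.001687). Its direction cannot be read, since its readings between CpG-A, CpG-B and medium do not add up (1.09 directly and -2.23 by way of medium), nor do those with LIF. Its SD was 0.51 in CpG-B and 0.63 in CpG-B + LIF cultures and at most 0.20 in the other groups, and neither call remained when arrays were unfolded at the widest gap (adjusted p = 0.1227 without LIF and 0.8483 with LIF). Ccl3, Ccl4, Ccl5, Ccl22, Cxcl9 and Ccrl2 were not called in either contrast. For Ccl5 the difference was 0.03 ± 0.24 without LIF, and for Cxcl9 it was 0.85 ± 0.35 (adjusted p = 0.1331) with arrays that did not overlap.

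**Figure D2:**
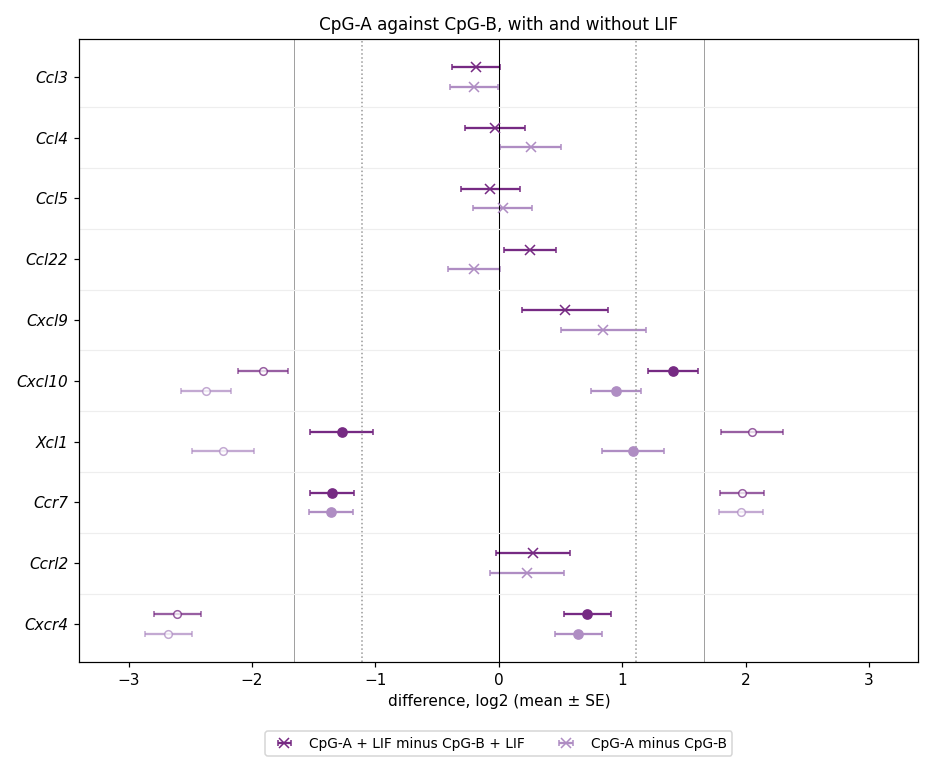
Nearest readings of CpG-A against CpG-B cultures with and without LIF, log2 difference ± SE, for the 10 genes. Filled circles are called differences, open circles their other readings, and crosses differences not called. Dotted lines mark 2.15-fold and grey lines 3.16-fold. Ccr7 sits at -1.36 and -1.35, and Cxcl10 at 0.95 and 1.41.

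The inflammatory chemokines Ccl3, Ccl4 and Ccl5 took nearly the same significands in all 4 CpG groups and other ones in the groups without CpG. Ccl3 had 6.16, 5.64 and 5.87 in CpG-A + LIF cultures and 5.56, 5.83 and 6.09 in CpG-A cultures. It had 6.55, 6.82 and 6.73 in CpG-B + LIF cultures and 6.94, 6.40 and 6.79 in CpG-B cultures. It had 1.95, 4.15 and 2.54 in LIF cultures, against 2.01 and 1.40 in medium. The 12 CpG arrays overlapped no LIF or medium array, and the groups without CpG spread more widely.

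Ccl5 had 3.60, 1.87 and 2.95 in CpG-A + LIF cultures and 3.41, 2.39 and 3.30 in CpG-A cultures. It had 2.93, 2.83 and 2.75 in CpG-B + LIF cultures and 3.15, 2.68 and 3.01 in CpG-B cultures. It had 9.76, 1.36 and 6.50 in LIF cultures, against 5.97 and 6.28 in medium. The LIF arrays were spread over a wide part of the circle, the CpG arrays lay closer together, and the CpG arrays overlapped neither LIF nor medium arrays. Ccl4 had group mean significands of 2.25, 2.65, 2.30 and 2.22 in CpG-A + LIF, CpG-A, CpG-B + LIF and CpG-B cultures, then 1.36 in LIF cultures and 4.71 in medium. Its 12 CpG arrays ran from 1.59 to 2.92, and the highest LIF array, at 1.67, overlapped them.

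The directions of these 3 genes cannot be read. Their nearest readings of CpG over medium were below 0, while those of CpG + LIF over LIF were above 0, and the steps round medium, LIF, CpG + LIF and CpG do not add up. For Ccl5, CpG-A + LIF over medium summed to 2.14 by way of LIF and to -1.18 by way of CpG-A, so at least 1 nearest reading on the loop is wrong. The other readings of Ccl3 over medium are 1.80 for CpG-A and 2.00 for CpG-B. Those of Ccl4 are 2.49 and 2.24, and those of Ccl5 are 2.29 and 2.26. The Ccl5 calls against medium were lost without medium replicate 1 (adjusted p = 0.05973) or 3 (adjusted p = 0.07987) for CpG-A and without medium replicate 3 (adjusted p = 0.06605) for CpG-B. The Ccl4 calls were lost without medium replicate 1, at -0.42 for CpG-A (adjusted p = 0.5196) and -0.68 for CpG-B (adjusted p = 0.199), and the CpG-A call was absent in 12 of 22 alternatives. The CpG over LIF readings of Ccl3 were 1.10 ± 0.20 (adjusted p = 0.0005228) in CpG-A + LIF cultures and 1.29 ± 0.20, or -2.03 (adjusted p = 7.895e-05), in CpG-B + LIF cultures. Those of Ccl5 were 1.51 ± 0.24, or -1.81 (adjusted p = 0.0001641), and 1.58 ± 0.24, or -1.75 (adjusted p = 7.022e-05). Without LIF replicate 2 the nearest Ccl5 readings turned to -1.56 and -1.49, and without CpG-A + LIF replicate 2 that of CpG-A + LIF turned to -1.55.

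**Figure D3:**
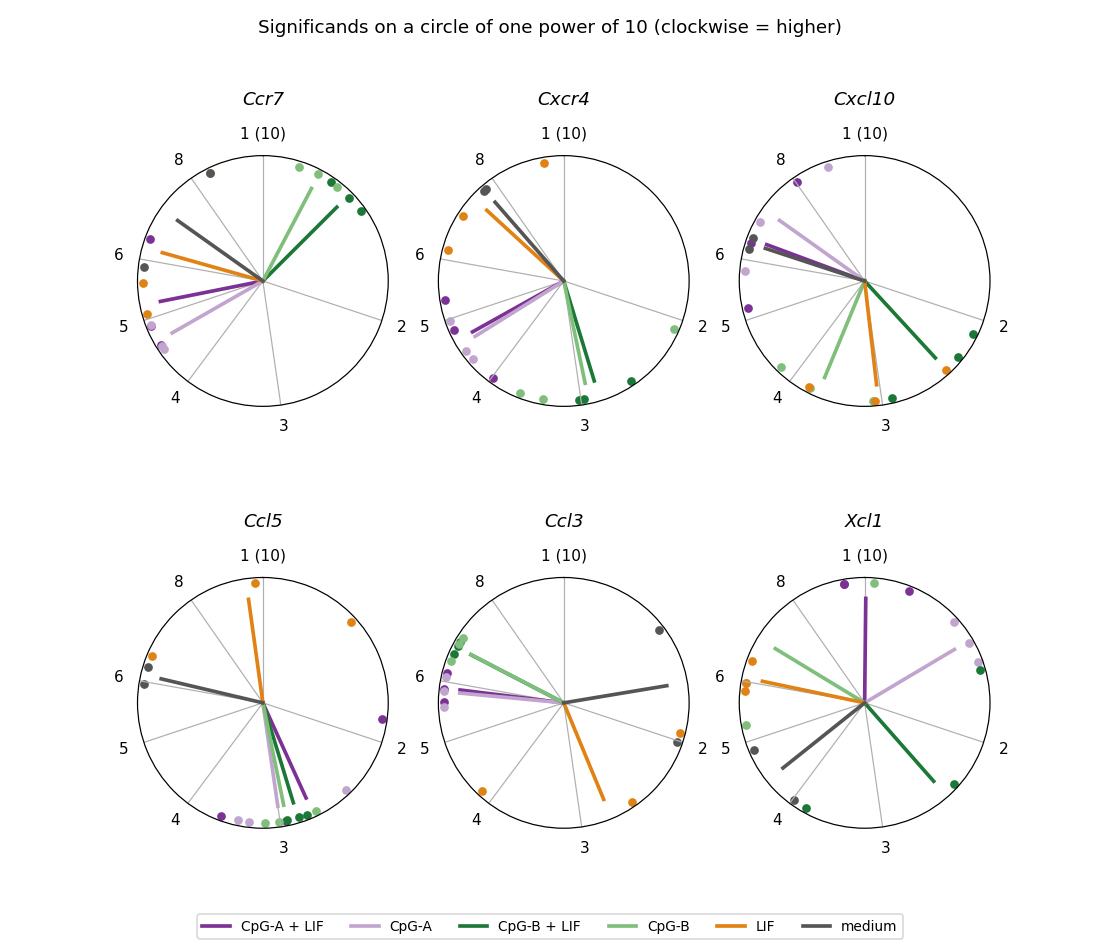
Significands of 6 genes on a circle of one power of 10, clockwise upwards, with dots for arrays and spokes for circular group means. The CpG groups of Ccl5 and Ccl3 point the same way, those of Ccr7 split by CpG class, and Xcl1 groups are spread round the circle.

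Against medium, 8 of 10 genes were called for CpG-A and 6 of 10 for CpG-B, where 16.8% and 18.9% of all probe sets were called. For CpG-A, 1 gene read higher (4.87% of all), 4 lower (7.22%) and 3 have both readings (4.75%). For CpG-B, 1 read higher (6.79% of all), 3 lower (6.79%) and 2 have both readings (5.33%). Those counted as lower include Ccl4 and Ccl5, whose direction cannot be read. The median size was 0.93 for CpG-A and 0.83 for CpG-B, against 0.20 and 0.21 over all probe sets. Since the genes were chosen with earlier results known, these counts and sizes are no test of an excess. Only for 6 genes, Ccl22, Cxcl9, Cxcl10, Ccr7, Ccrl2 and Cxcr4, do the 6 group means lie within 1.66 of each other, so that all nearest readings add up. Even there the order rests on the assumption that no change passed 3.16-fold.

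Cxcr4 had 3.37, 2.07 and 3.62 in CpG-B cultures, against 7.73 and 7.65 in medium, with no overlap. The difference was -1.39 ± 0.21, or 1.93 (adjusted p = 0.0001398). Its call and sign held in all 22 alternatives, which do not tell these readings apart. In CpG-A cultures, described above, Cxcr4 read lower than in medium by -0.75 ± 0.21 (adjusted p = 0.02093). Leaving out CpG-A replicate 2 or 3 or either medium array ended the call (adjusted p up to 0.1135). In the smallest-span order Cxcr4 ran from CpG-B + LIF and CpG-B through CpG-A and CpG-A + LIF to LIF and medium, where arrays overlapped within each of these 3 pairs of groups and not between them.

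Ccr7 had 8.47 and 5.87 in medium. It read higher in CpG-B cultures than in medium by 0.76 ± 0.20 (adjusted p = 0.01162), a call lost without medium replicate 3 (0.50, adjusted p = 0.2208). It read lower in CpG-A cultures than in medium by -0.60 ± 0.20 (adjusted p = 0.04887), and this was lost in 16 of the 22 alternatives, at -0.34 without medium replicate 1 (adjusted p = 0.492). Ccr7 had 5.59, 5.08 and 8.47 in LIF cultures. In CpG-B + LIF cultures it read higher than in LIF cultures by 1.10 ± 0.18 (adjusted p = 0.0001648). The call and sign held in all 22 alternatives, but 1.10 is at the edge of the size for which a direction is given. The other reading was -2.22, and leaving out single arrays gave 0.95 to 1.32, which passes that size. In CpG-A + LIF cultures Ccr7 differed from LIF cultures by -0.25 and the arrays overlapped. In the smallest-span order Ccr7 ran from CpG-A through CpG-A + LIF, LIF and medium to CpG-B and CpG-B + LIF, and among neighbours only medium and CpG-B arrays did not overlap.

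Cxcl10 had 6.43 and 6.20 in medium, in the midst of the CpG-A arrays, and its difference of 0.16 ± 0.22 for CpG-A was not called (adjusted p = 0.7368). For CpG-B it read lower than in medium by -0.79 ± 0.22 (adjusted p = 0.01828), a call lost without CpG-B replicate 2, medium replicate 1 or medium replicate 3 (adjusted p 0.0727 to 0.1093). Against LIF cultures Cxcl10 read higher in CpG-A + LIF cultures by 1.08 ± 0.20 (adjusted p = 0.0008192), or -2.24 as the other reading. The call and sign held in all 22 alternatives. Leaving out single arrays gave 0.91 to 1.24, which passes the size for which a direction is given. Since a 10-fold change would read as none, the missing difference between CpG-A and medium says nothing about a change of that size.

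Cxcl9, another CXCR3 ligand, had 4.39, 6.61 and 3.13 in CpG-A cultures, against 1.43 and 1.65 in medium, with no overlap. The difference was 1.55 ± 0.39, or -1.77 (adjusted p = 0.008649). It turned to -1.51 without CpG-A replicate 3 and was not called without medium replicate 1 (adjusted p = 0.08436). CpG-B cultures, at 2.90, 2.11 and 2.55, differed from medium by 0.70 and were not called (adjusted p = 0.2518).

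Ccrl2 had 7.68, 5.95 and 5.71 in CpG-A cultures, against 2.54 and 3.48 in medium. It read higher by 1.106 ± 0.33 (adjusted p = 0.02848), at the edge of the size for which a direction is given, and the other reading was -2.22. The call ended when CpG-A replicate 1 (0.97, adjusted p = 0.09884) was left out, and likewise medium replicate 1 (0.88, adjusted p = 0.2471) or medium replicate 3 (1.33, adjusted p = 0.05598). In CpG-B cultures the difference of 0.88 was not called (adjusted p = 0.08029).

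Ccl22 had 1.21, 2.30 and 1.31 in CpG-A cultures, against 2.11 and 1.93 in medium, with overlap, and was not called. It spanned 0.71 over all group means, the smallest span of the 10 genes. It read lower in CpG-B + LIF than in LIF cultures by -0.71 ± 0.21 (adjusted p = 0.01792), a call lost without CpG-B + LIF replicate 2 or LIF replicate 2 (adjusted p up to 0.09636). Xcl1 had 1.47, 1.57 and 1.36 in CpG-A cultures, against 4.85 and 3.98 in medium, a difference of -1.59 ± 0.28, or 1.73 (adjusted p = 0.0006131). That sign reversed when arrays were unfolded at the widest gap, when replicates were blocked or when medium replicate 3 was left out.

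Against LIF cultures, 6 of 10 genes were called in CpG-A + LIF cultures and 8 of 10 in CpG-B + LIF cultures, where 17.4% and 25.3% of all probe sets were called. In CpG-A + LIF cultures 3 read higher (6.11% of all), 1 lower (7.29%) and 2 have both readings (4.04%). In CpG-B + LIF cultures 3 read higher (10.4% of all), 1 lower (8.88%) and 4 have both readings (6.04%). The median size was 0.85 with CpG-A + LIF and 1.00 with CpG-B + LIF, against 0.18 and 0.22 over all probe sets. Those counted as higher include Ccl3 with CpG-A + LIF and Ccl4 in both, whose directions cannot be read. Ccl4 was no longer called in 13 and 5 of 22 alternatives, among them leaving out LIF replicate 1 or 3. Cxcr4 read lower in CpG-A + LIF cultures by -0.66 ± 0.19 (adjusted p = 0.02123), a call lost without CpG-A + LIF replicate 1 or LIF replicate 2 (adjusted p = 0.1044 and 0.1168). With CpG-A + LIF, Ccrl2 differed by 1.17 ± 0.30, or -2.15 (adjusted p = 0.009659), a call lost without CpG-A + LIF replicate 1 (0.83, adjusted p = 0.06727). With CpG-B + LIF it read higher by 0.89 ± 0.30 (adjusted p = 0.03517), a call lost without CpG-B + LIF replicate 1 or 2 or LIF replicate 1 or 3 (adjusted p 0.08395 to 0.1378). Cxcr4 differed by -1.38 ± 0.19, or 1.94 (adjusted p = 3.292e-05), in CpG-B + LIF cultures, where it had 3.02, 2.54 and 2.98, against 6.93, 9.40 and 6.18 in LIF cultures. Xcl1 differed by -1.32 ± 0.25, or 2.00 (adjusted p = 0.0006835), in CpG-B + LIF cultures, and turned to 0.89 when arrays were unfolded at the widest gap. The LIF and medium cultures are separate arrays, but the comparisons that share them are not independent.

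**Figure D4:**
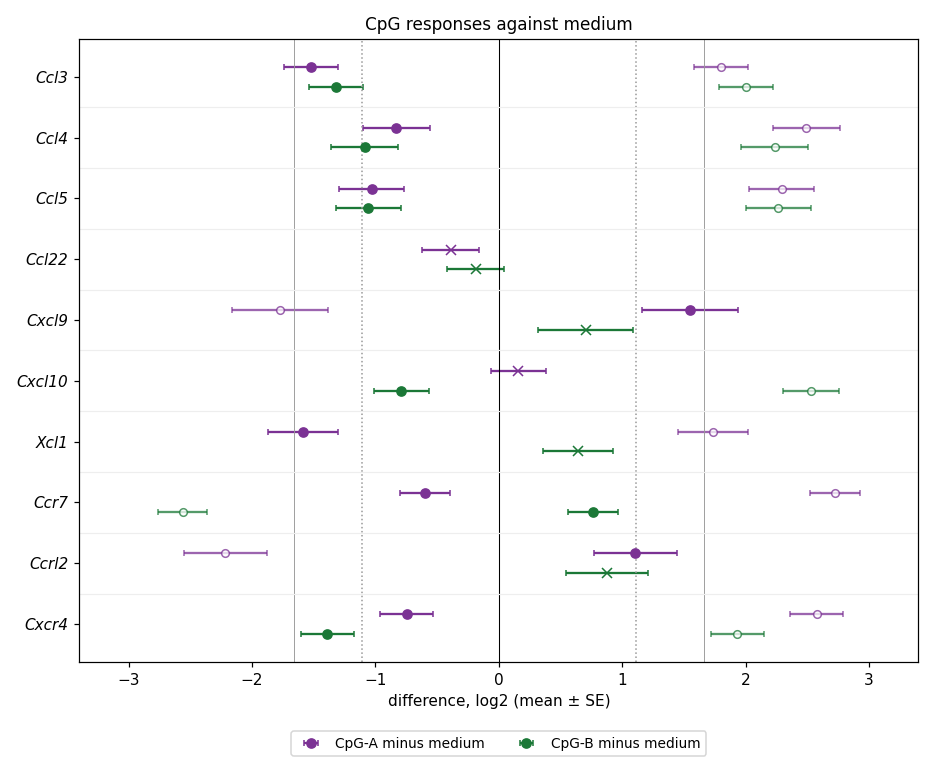
Nearest readings, log2 difference ± SE, of CpG-A and CpG-B cultures against medium, for the 10 genes. Filled circles are called differences, open circles their other readings, and crosses differences not called. The nearest readings of Ccl3, Ccl4 and Ccl5 lie below 0 for both CpG classes, and their other readings lie above 0.

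Few of the genes were called for LIF. Added to CpG-A it gave 0 called genes of 10 by limma, where 0.00468% of all probe sets were called. By unadjusted p under 0.05 there was 1, Xcl1 (-0.54, adjusted p = 0.8186), and the share of all probe sets at that threshold was not counted. Readings of the genes ran from -0.57 for Cxcl9 to 0.26 for Ccl22, and Ccl3 (0.02) and Cxcr4 (0.03) were nearest to 0. Added to CpG-B it gave 1 called gene of 10, where 0.0609% of all probe sets were called, and 0.014% had both readings given. This was Xcl1, at 1.61, 3.82 and 2.33 in CpG-B + LIF cultures, against 5.26, 1.03 and 5.98 in CpG-B cultures. Its difference was -1.50 ± 0.25, or 1.82 (adjusted p = 0.04824), and CpG-B replicate 2 lay apart from the other CpG-B arrays. The call was absent in 18 of 22 alternatives (adjusted p 0.02645 to 0.7758), and the sign turned without CpG-B + LIF replicate 2 or CpG-B replicate 1. Cxcl10 differed by -0.60 ± 0.20 in CpG-B + LIF against CpG-B cultures with no overlap, and was not called (adjusted p = 0.4254).

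Without CpG, 2 of 10 genes were called in LIF cultures against medium, where 0.731% of all probe sets were called. Of these, 1 read lower (0.201% of all) and 1 has both readings (0.295% of all). Cxcl10 had 3.77, 2.41 and 3.07 in LIF cultures, against 6.43 and 6.20 in medium, with no overlap. It read lower by -1.06 ± 0.22 (adjusted p = 0.03428), or 2.26 as the other reading. The call was lost without LIF replicate 2 (-0.89, adjusted p = 0.1139), LIF replicate 3 (adjusted p = 0.06771) or medium replicate 1 or 3 (adjusted p = 0.2788 and 0.2008). Ccl4 had 1.45, 1.67 and 1.04 in LIF cultures, against 6.24 and 3.55 in medium, a difference of 1.53 ± 0.27, or -1.79 (adjusted p = 0.01252). Its sign turned without LIF replicate 3 or medium replicate 1, and its call was lost without either medium array (adjusted p = 0.118 and 0.2171).

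No gene was called for a LIF effect that differed between backgrounds, in any of the 3 interactions. Such calls covered 0.0421% of all probe sets for CpG-A against medium, 0.108% for CpG-B against medium and 0 for CpG-A against CpG-B. By unadjusted p under 0.05 there were 5, 3 and 1 of 10 genes, and the share of all probe sets at that threshold was not counted. Apart from Cxcl10 they were Ccl3, Ccl4, Ccl5 or Xcl1, whose nearest readings do not all add up. Xcl1 came nearest, at -1.97 ± 0.38 (adjusted p = 0.05562) for the LIF effect under CpG-B minus that in medium. Since such a value subtracts 1 nearest reading from another, it can pass 1.66 in size, and here 1.35 fits the digits as well. The value was 0.25 when arrays were unfolded at the widest gap, and positive without CpG-B + LIF replicate 2 (1.03) or CpG-B replicate 1 (1.16).

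**Figure D5:**
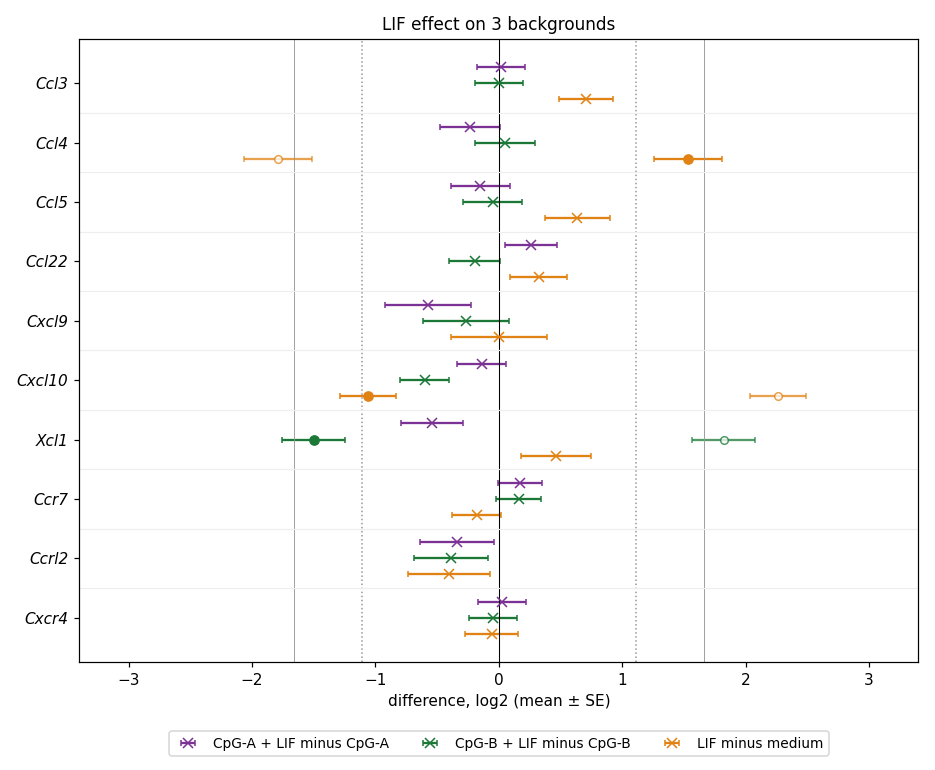
Nearest readings of the LIF effect, log2 difference ± SE, in CpG-A, CpG-B and medium cultures for the 10 genes. Filled circles are called differences, open circles their other readings, and crosses differences not called. Called differences are Xcl1 in CpG-B cultures, and Ccl4 and Cxcl10 in LIF cultures against medium.

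Other chemokines and receptors were counted from lists of both families. Of 33 probe sets for 29 other chemokines, 2 were called for CpG-A against medium, 6 for CpG-B against medium and 0 for LIF against medium, where 16.8%, 18.9% and 0.731% of all probe sets were called. These counts are near or below the share over all probe sets. Cxcl11 read higher in CpG-A cultures than in medium by 0.92 ± 0.21 (adjusted p = 0.004327) and than in CpG-B cultures by 0.60 ± 0.19 (adjusted p = 0.04472). Ccl9, which binds CCR1, read lower in CpG-B cultures than in medium by -0.84 ± 0.20 (adjusted p = 0.004721). Cxcl16, the ligand of CXCR6, differed from medium by 1.44 ± 0.25, or -1.88, in CpG-A cultures (adjusted p = 0.0005204) and by 1.33 ± 0.25, or -1.99, in CpG-B cultures (adjusted p = 0.00088). Between CpG-A and CpG-B cultures 5 other chemokine probe sets were called, where 12.9% of all were. Of 20 other receptors, 2 were called for CpG-A, 3 for CpG-B and 0 for LIF against medium, below the shares of all probe sets given above. Against LIF cultures 3 were called in CpG-A + LIF and 9 in CpG-B + LIF cultures, where 17.4% and 25.3% of all probe sets were. Of these 9, 7 read lower, 1 higher and 1 has both readings, where 8.88%, 10.4% and 6.04% of all did. Between CpG-A and CpG-B cultures 3 were called without LIF and 4 with LIF, where 12.9% and 16.9% of all were. Ccr4, the receptor of CCL22, differed between CpG-A and CpG-B cultures by -1.42 ± 0.20, or 1.91 (adjusted p = 0.0001212). Its nearest readings against medium were 0.98 for CpG-A (adjusted p = 0.004934) and -0.93 for CpG-B (adjusted p = 0.006624). These do not add up to -1.42, so at least 1 nearest reading is wrong and the direction cannot be read. Ccr9, the gut-homing receptor for CCL25, read higher in CpG-A cultures than in CpG-B cultures by 0.59 ± 0.13 (adjusted p = 0.004686). With LIF it read higher by 0.88 ± 0.13 (adjusted p = 0.0001269). LIF added to CpG-A or CpG-B called 0 of the other chemokines and 0 of the other receptors.

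By likeness of array pattern, the genes nearest to Cxcl10 over 17 arrays were Spib (mean cosine 0.83), Oas2 (0.82) and Carmil1 (0.81), where the 99th percentile of all probe sets was 0.66. Those nearest to Ccr7 were Nap1l1 (0.94), Exosc8 (0.92) and Nup93 (0.91), against 0.81. Those nearest to Ccl5 were Nfkbiz (0.90), Dck (0.89) and Nlrc5 (0.89), against 0.69. These genes head a ranking of all probe sets, so each passes the 99th percentile whatever the data.

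Markers could not be used to check the sorted cell type, because levels are not known. Of 8 pDC marker genes found, 3 were called for CpG-A against medium, 6 for CpG-B against medium and 6 between CpG-A and CpG-B cultures. Of all probe sets, 16.8%, 18.9% and 12.9% were called in these 3 comparisons. The shares against medium also apply to the counts that follow. Conventional dendritic cell markers were called for 4 of 8 with CpG-A and 6 of 8 with CpG-B against medium, monocyte and macrophage markers for 3 and 4 of 6, and neutrophil markers for 2 and 3 of 8. B cell markers were called for 3 of 7 with CpG-A and 1 of 7 with CpG-B. Of 9 T and NK cell markers found, 0 were called for CpG-A and 2 for CpG-B against medium. Of these 2, Il2rb read higher by 0.92 ± 0.18 (adjusted p = 0.001259) and Klrb1c has both readings. The median reading of all 9 was -0.097 for CpG-B against medium. No marker of the pDC, T and NK cell, monocyte, neutrophil, conventional dendritic cell or B cell lists was called in the 3 comparisons of LIF. Of all probe sets, 0.731% were called for LIF against medium, 0.00468% for LIF added to CpG-A and 0.0609% for LIF added to CpG-B. The part of other cells in the chemokine differences was not tested, and in bulk samples fewer cells of a type and less RNA per cell cannot be told apart.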

How the data were processed

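Total RNA of 17 pDC cultures was measured on Affymetrix arrays, and RMA is named in the submitters' processing notes, but no version. The deposited values are other than a standard unit: whole-number digits, with a decimal mark in only 1 of 419560 cells. They were taken as digits of linear intensities, and that scale was not tested. A search for the lost marks over several storage rules placed none (at most 0.0345 percentage points over chance).

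Each value became a position on a circle of log2(10). Group means were circular, deviations were taken the shortest way, and limma 3.58.1 in R 4.3.3 fitted 6 group means over 17 arrays (11 residual degrees of freedom), with eBayes and Benjamini-Hochberg adjustment over 21354 probe sets with exactly 1 symbol. Probe sets with several symbols (1275) or none (2051) were not used. The fit was tested on simulated data. Named genes were the 10 listed genes, the other chemokines and receptors called most often, and the most like genes. Members and lists were chosen with earlier results of these data known. Alternatives were unfolding at the widest gap, array medians set to 0, robust eBayes, a replicate block, 1 probe set per gene and leaving out each of 17 arrays. Deviations of same-number arrays correlated at over 0.1 in all 3 pairs of CpG-B + LIF with CpG-B cultures (0.117 to 0.242). The numbers may therefore pair that comparison, as a hint from the data only. No other comparison reported here met this rule, but LIF with CpG-A cultures, which were not compared, also did (0.101 to 0.147). The main fit used no replicate block.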

Additional observations from a re-analysis of the deposited data

How the results depend on the processing

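Over the 22 alternatives, 10 of 39 called differences of the 10 genes kept call and sign: Cxcr4 for CpG-B against medium, Cxcl10 and Ccr7 for CpG-A against CpG-B with and without LIF, Ccl3 and Cxcl10 for CpG-A + LIF against LIF, and Ccl3, Ccr7 and Cxcr4 for CpG-B + LIF against LIF. Unfolding at the widest gap reversed, for CpG-A against medium, Ccl3 (1.80), Ccl4 (0.83), Ccl5 (2.29) and Xcl1 (1.73), and for CpG-B against medium, Ccl3 (2.00), Ccl4 (0.57) and Ccl5 (2.26). It also reversed Ccl4 for LIF against medium (-0.13), and Xcl1 for CpG-B + LIF against CpG-B (0.71) and against LIF (0.89). The replicate block reversed Xcl1 for CpG-A against medium (1.61). Leaving out single arrays gave for CpG-A against medium -1.56 to 1.54 (Ccl3), -1.51 to 1.66 (Cxcl9) and -1.64 to 1.59 (Xcl1), and for LIF against medium -1.60 to 1.53 (Ccl4). It gave -1.60 to 1.63 (Xcl1) for CpG-B + LIF against CpG-B, -1.23 to 1.02 (Cxcl9) for CpG-A + LIF against CpG-B + LIF, and -1.56 to 1.53 (Ccl5) for CpG-A + LIF against LIF. For CpG-B + LIF against LIF it gave -1.49 to 1.60 (Ccl5) and -1.12 to 0.82 (Cxcl9). The number of genes called ranged from 2 to 8 for CpG-A against medium, 3 to 7 for CpG-B against medium, 0 to 3 for LIF against medium, 0 to 1 for CpG-B + LIF against CpG-B and 3 to 7 for CpG-A + LIF against LIF. Probe sets called ranged from 2320 to 3722, 2602 to 4173 and 10 to 159 in the 3 comparisons with medium, in that order, from 0 to 3 for LIF added to CpG-A and from 1 to 10 for LIF added to CpG-B. At the widest gap 1 gene was called for LIF against medium, and 8 probe sets for LIF added to CpG-A, against 1 as reported and 0 with array medians set to 0. For LIF added to CpG-B, 5 probe sets and 0 genes were called at the widest gap and 2 and 0 with array medians at 0, against 13 and 1. The replicate block and 1 probe set per gene each gave 1 called gene, Xcl1, for the LIF effect under CpG-B minus that in medium (-1.85, adjusted p = 0.04008, and -1.97, adjusted p = 0.0476). Over all groups, same-number pairs had a median correlation of 0.02, with 8 of 40 over 0.1, and 14 of 17 arrays correlated best with one of their own number, a hint from the data only. For CpG-B + LIF against CpG-B, where the numbers may pair the arrays, the replicate block changed no call of the 10 genes. Elsewhere it ended the calls of Ccl4 (adjusted p = 0.05463) and Ccr7 (adjusted p = 0.0743) for CpG-A against medium, and added Ccrl2 for CpG-B against medium (0.95, adjusted p = 0.04399) and Xcl1 for CpG-A + LIF against LIF (0.73, adjusted p = 0.03644). In a fit without 1 medium array, the lone array is assumed to vary like the other groups. In 93 uncalled cases the sign changed and was not read. The dim-probe filter was not run, since levels are not known, and signal over background cannot be given. The cause of these changes was not tested.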
